A study of Homo sapiens with 20 samples.

Results

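The 8 listed genes of retinol storage, reduction and oxidation included 7 that could be measured: LRAT, DHRS3, RDH10, RDH11, ADH5, ALDH1A2 and ALDH1A1. A gene was kept where a probe annotated to it had a detection p-value under 0.01 on at least 3 of the 20 arrays. The 8 genes had 12 annotated probes, 10 of them passed, and ALDH1A3 was left with none. The 7 genes stood among 10673 genes tested by the same rule on the whole array. The cells were Mel202, a single human uveal melanoma line, which per the labels carries the GNAQ alleles Q209L and R210K in every group and is BRAF wild type. They were kept in serum-containing medium and given all-trans retinoic acid (ATRA) at 100 nM, 9-cis retinoic acid (9-cis RA) at 100 nM, or ethanol (EtOH), the solvent of both compounds, for 24 or 48 h. RNA was hybridised to Illumina BeadChips, on which each probe gives a mean bead intensity and a detection p-value. Arrays with the same number in their titles were averaged, leaving 3 ATRA, 2 9-cis RA and 2 EtOH samples at each time, named below by their array numbers. The labels do not tie the samples to separate cultures. The p-values therefore reflect variation among these samples, part or all of which may be technical.

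Cells take up retinol and either store it as retinyl ester or oxidise it, first to retinaldehyde and then to retinoic acid, the ligand of the nuclear retinoic acid receptors. LRAT makes the ester, DHRS3 reduces retinaldehyde back to retinol, RDH10 and other dehydrogenases make retinaldehyde, and the ALDH1A enzymes carry out the final oxidation, which cannot be reversed. CYP26 enzymes then degrade retinoic acid, and in many tissues retinoic acid itself raises the transcription of CYP26A1, LRAT and DHRS3, so the pathway is known for feedback.

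Promoter windows are shown for LRAT, DHRS3 and ALDH1A2, the genes that were higher with both compounds at both times. They come from RefSeq on build GRCh38.p14 and run from 250 bases before to 50 bases after an annotated start site, 5′ to 3′ on the gene's strand. Windows matched 7 of the 8 genes, all but RDH10. Capitals mark half-sites of the kind that retinoic acid receptors bind in pairs (AGGTCA and its variants with the letters AGTTCA, with the letters GGGTCA and with the letters GGTTCA), the letters CCAAT and the letters TATAAA, each searched on both strands. The windows are LRAT on chr4:154743750-154744049 (plus strand), DHRS3 window 2 on chr1:12616740-12617039 and window 3 on chr1:12596564-12596863 (minus strand), and ALDH1A2 window 1 on chr15:58065662-58065961 and window 2 on chr15:58013974-58014273 (minus strand).
LRAT: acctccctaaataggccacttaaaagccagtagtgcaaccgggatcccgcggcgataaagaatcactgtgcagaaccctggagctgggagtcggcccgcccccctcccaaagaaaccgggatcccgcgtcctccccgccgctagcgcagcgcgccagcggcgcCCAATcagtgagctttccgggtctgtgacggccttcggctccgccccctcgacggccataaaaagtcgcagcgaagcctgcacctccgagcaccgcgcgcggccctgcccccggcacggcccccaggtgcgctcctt
DHRS3 window 2: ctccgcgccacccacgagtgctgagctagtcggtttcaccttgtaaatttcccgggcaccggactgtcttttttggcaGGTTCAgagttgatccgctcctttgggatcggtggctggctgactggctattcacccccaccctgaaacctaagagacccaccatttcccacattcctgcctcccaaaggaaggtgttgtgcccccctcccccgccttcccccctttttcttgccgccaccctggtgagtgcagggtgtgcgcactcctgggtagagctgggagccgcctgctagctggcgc
DHRS3 window 3: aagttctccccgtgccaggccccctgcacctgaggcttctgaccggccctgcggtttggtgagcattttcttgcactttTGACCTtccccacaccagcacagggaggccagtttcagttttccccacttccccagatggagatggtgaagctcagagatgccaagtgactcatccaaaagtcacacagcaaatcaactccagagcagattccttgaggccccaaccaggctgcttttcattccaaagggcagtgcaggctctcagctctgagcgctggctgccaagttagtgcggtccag
ALDH1A2 window 1: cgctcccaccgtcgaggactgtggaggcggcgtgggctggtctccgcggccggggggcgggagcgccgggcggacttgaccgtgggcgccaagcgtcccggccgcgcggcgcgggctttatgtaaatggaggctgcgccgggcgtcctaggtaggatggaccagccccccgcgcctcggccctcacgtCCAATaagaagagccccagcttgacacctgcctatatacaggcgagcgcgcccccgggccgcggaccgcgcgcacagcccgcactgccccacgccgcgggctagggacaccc
ALDH1A2 window 2: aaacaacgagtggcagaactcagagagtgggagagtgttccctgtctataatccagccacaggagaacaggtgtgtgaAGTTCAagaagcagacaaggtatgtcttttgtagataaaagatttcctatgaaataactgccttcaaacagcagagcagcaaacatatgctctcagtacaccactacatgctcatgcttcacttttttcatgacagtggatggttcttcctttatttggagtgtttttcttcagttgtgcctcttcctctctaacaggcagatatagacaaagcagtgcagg
The LRAT window held no half-site and a CCAAT starting 87 bases before the start site (position -87). Of the 3 DHRS3 windows, window 2 held GGTTCA at position -172 and window 3 held AGGTCA on the opposite strand at position -171. DHRS3 window 1, not printed, held none of the marked letters. ALDH1A2 window 1 held CCAAT at position -62, and window 2 held AGTTCA at position -172. CCAAT was also present in the windows of ALDH1A1 (-74), ALDH1A3 (-71) and RDH11 (-22, opposite strand), which held no half-site. The ADH5 window held none of the marked letters. Neither kind of match thus set the printed genes apart from the other members. A half-site was present in 38.6% of all 35116 windows in the table and CCAAT in 34.6%. No window of the 7 genes held a direct repeat of half-sites spaced by 1, 2 or 5 bases, an arrangement present in 0.259% of all windows. For comparison, a window of CYP26A1 held the repeat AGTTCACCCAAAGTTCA on the opposite strand, starting at position -90. Matches of letters are a description of these windows alone.

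The arrays fell into 2 sets by the number of detected probes, 15870 to 17128 on 12 arrays and 12561 to 14301 on the other 8. ATRA replicate 4 of 24 h and ATRA replicate 4 of 48 h were measured in the second set alone. They are separate samples, and the labels do not tie them to each other. On the second principal component of all tested genes 4 samples stood apart: ATRA replicate 4 at 24 h, ATRA replicate 4 at 48 h and both 9-cis RA samples at 24 h. Of 8 melanocyte-lineage markers, 7 had a probe and all 7 were detected on every array, with PMEL between 14.22 and 14.49 on the log2 scale. Among markers of other cell types with a probe, COL1A1 was detected on 0 arrays and KDR on 1, while LUM, CD68, CDH1 and BEST1 were detected on all 20.

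In RNA from whole cultures, fewer cells that express a gene and less RNA per cell cannot be told apart. Under ATRA at 24 h, 3 of the 7 genes rose and 1 fell, where 5.76% of all tested genes passed (3.3% higher, 2.46% lower). At 48 h of ATRA, 4 rose and 1 fell against a background of 17.4% of all genes (8.61% higher, 8.78% lower). Under 9-cis RA, 4 rose and 0 fell at 24 h against a background of 14.5% (8.73% higher, 5.78% lower), and 3 rose and 1 fell at 48 h against 11% (5.54% higher, 5.49% lower). LRAT, DHRS3 and ALDH1A2 rose in all 4 comparisons, RDH10 fell in 3 of them, ADH5 rose under ATRA at 48 h, ALDH1A1 rose under 9-cis RA at 24 h, and RDH11 passed in 0. Without ATRA replicate 4 at both times, 3, 5, 4 and 5 genes passed in the order ATRA 24 h, ATRA 48 h, 9-cis RA 24 h and 9-cis RA 48 h. With a term for the 4 samples that stood apart, the counts were 4, 5, 3 and 5. That term covers the whole 9-cis RA group of 24 h and was estimated from the ATRA groups. The median difference of the 7 genes was 0.71 under ATRA at 24 h, 0.83 under ATRA at 48 h, 0.78 under 9-cis RA at 24 h and 0.90 under 9-cis RA at 48 h, against -0.02, -0.001, 0.01 and -0.01 for all genes in the same comparisons. Throughout, values are log2 intensities after background correction and quantile normalization, differences are retinoid minus EtOH at the same time, and the threshold was 0.05 on p-values of limma's moderated test, adjusted over all 10673 genes. LRAT and DHRS3 passed the detection filter through retinoid arrays alone, and ALDH1A2, detected on 2 EtOH arrays and 12 retinoid arrays, could not have passed without the retinoid arrays. The 3 genes that rose in all 4 comparisons were thus kept through the groups in which they were high, and counts and medians over the 7 genes are given as a description alone. The treated and EtOH samples did not overlap for 7 of the 7 genes under ATRA at 24 h, where 46.1% of all genes did not, and for 4 under ATRA at 48 h, where 38.8% did not. The corresponding counts under 9-cis RA were 7 at 24 h, with 72.3% of all genes, and 7 at 48 h, with 49% of all genes, so separation of so few samples was common.

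**Figure D1:**
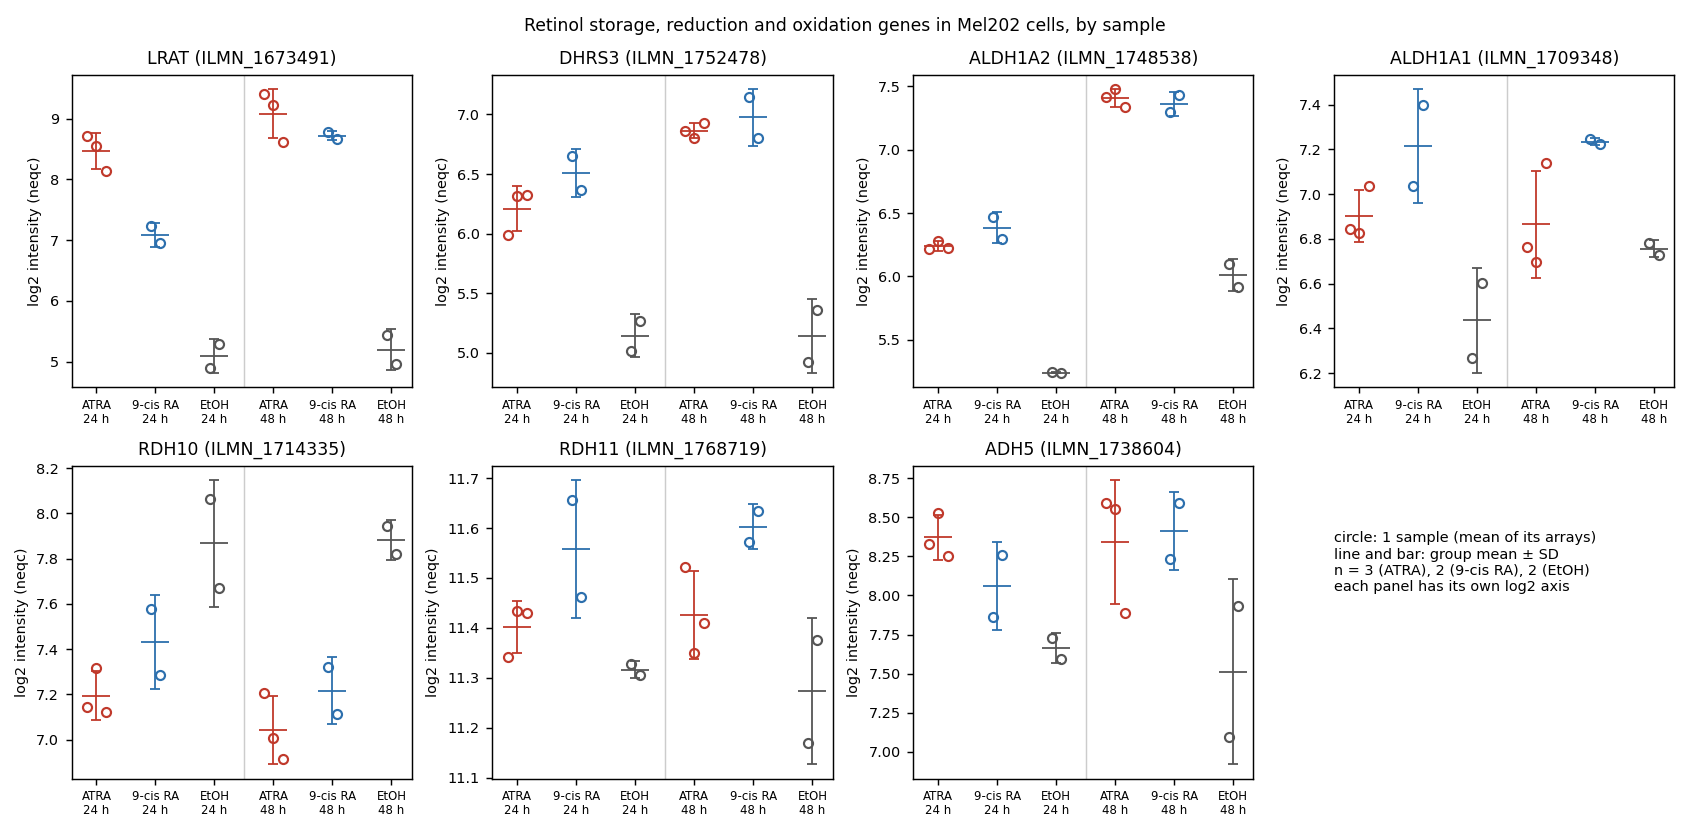
Log2 intensity (vertical axis) of the probe standing for each gene in each of the 14 samples, by group and time (horizontal axis), with bars at the group means. LRAT lies between 6.94 and 9.40 in retinoid samples and between 4.89 and 5.43 in EtOH samples, and RDH10 is the gene whose EtOH samples lie above the retinoid samples.

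LRAT, lecithin retinol acyltransferase, esterifies retinol for storage and showed the largest differences of the 7 genes. At 24 h it stood at 8.72, 8.55 and 8.14 in the ATRA samples and at 7.23 and 6.94 in the 9-cis RA samples, against 4.89 and 5.29 in the EtOH samples. At 48 h it stood at 9.40, 9.22 and 8.62 in the ATRA samples and at 8.77 and 8.66 in the 9-cis RA samples, against 5.43 and 4.95 in the EtOH samples. Every retinoid sample lay above every EtOH sample. On the deposited scale the intensity was 383.8 to 597.5 with ATRA and 206 to 256.7 with 9-cis RA, against 126.1 to 152.9 with EtOH, at 24 h. LRAT was detected on all 14 retinoid arrays and on 0 of the 6 EtOH arrays. The folds are therefore given as lower bounds on the background-corrected scale, set against the lowest signal that was called detected. Such bounds carry no error term, and without background correction the fitted differences were smaller, as given below. With ATRA the bound was at least 6.88-fold higher at 24 h (fitted difference 3.38 ± 0.25 SE, adjusted p = 1.957e-06) and at least 10.4-fold higher at 48 h (3.89 ± 0.25, adjusted p = 3.4e-07). With 9-cis RA it was at least 2.64-fold higher at 24 h (1.99 ± 0.27, adjusted p = 0.0004463) and at least 8.11-fold higher at 48 h (3.53 ± 0.27, adjusted p = 2.406e-06). The order of the group means was ATRA 48 h, 9-cis RA 48 h, ATRA 24 h, 9-cis RA 24 h and then the 2 EtOH groups. Samples of the first 3 groups overlapped with those of their neighbour, while 9-cis RA at 24 h overlapped with neither side.

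DHRS3, a short-chain reductase that turns retinaldehyde back into retinol, also rose with each compound at each time. At 24 h it stood at 5.99, 6.31 and 6.33 in the ATRA samples and at 6.65 and 6.37 in the 9-cis RA samples, against 5.02 and 5.27 in the EtOH samples. At 48 h it stood at 6.86, 6.80 and 6.93 in the ATRA samples and at 7.15 and 6.80 in the 9-cis RA samples, against 4.92 and 5.36 in the EtOH samples. The retinoid and EtOH samples did not overlap at either time. DHRS3 was detected on 12 of the 14 retinoid arrays, the exceptions being 2 of the 4 ATRA arrays at 24 h, and on 0 EtOH arrays. With ATRA at 24 h, where both groups held undetected arrays, no bound is given and the fitted difference was 1.07 ± 0.18 (adjusted p = 0.002723). With ATRA at 48 h DHRS3 was at least 2.25-fold higher (1.72 ± 0.18, adjusted p = 3.331e-05). With 9-cis RA the bounds were at least 1.77-fold at 24 h (1.37 ± 0.20, adjusted p = 0.000713) and at least 2.43-fold at 48 h (1.83 ± 0.20, adjusted p = 4.935e-05). The call for ATRA at 24 h was lost without EtOH replicate 1 at that time (0.94, adjusted p = 0.06625).

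RDH10, a membrane-bound retinol dehydrogenase that makes retinaldehyde and catalyses the step opposite to that of DHRS3, was the member that fell. At 24 h it stood at 7.15, 7.32 and 7.12 in the ATRA samples and at 7.58 and 7.29 in the 9-cis RA samples, against 8.07 and 7.67 in the EtOH samples. At 48 h it stood at 7.21, 7.01 and 6.91 in the ATRA samples and at 7.32 and 7.11 in the 9-cis RA samples, against 7.95 and 7.82 in the EtOH samples. Each retinoid sample lay below each EtOH sample of its time, and RDH10 was detected on all 20 arrays. With ATRA it fell by 0.67 ± 0.16 at 24 h (adjusted p = 0.02806) and by 0.84 ± 0.16 at 48 h (adjusted p = 0.003647), a fold of 0.628 at 24 h and 0.558 at 48 h. With 9-cis RA it fell by 0.67 ± 0.18 at 48 h (adjusted p = 0.02771), and the value at 24 h was -0.44 ± 0.18 (adjusted p = 0.1094). The 48 h ATRA call held without each of the 14 samples in turn. The 24 h ATRA call was lost without EtOH 24 h replicate 1 (-0.47, adjusted p = 0.3172), without ATRA 24 h replicate 1-2 (adjusted p = 0.08641) and without ATRA 24 h replicate 4 (adjusted p = 0.07441). The 48 h 9-cis RA call was lost without EtOH 48 h replicate 1 (adjusted p = 0.1281) and without either 9-cis RA 48 h sample (adjusted p = 0.08295 and 0.1837).

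RDH11, another retinaldehyde reductase of the same enzyme family, and ADH5, the class III alcohol dehydrogenase that chiefly oxidises a glutathione adduct of formaldehyde, were detected on all 20 arrays. RDH11 lay between 11.17 and 11.66 in the 14 samples. Its differences were 0.09, 0.15, 0.24 and 0.33 for ATRA at 24 h, ATRA at 48 h, 9-cis RA at 24 h and 9-cis RA at 48 h, and 0 of these passed (adjusted p = 0.1586 to 0.7542). With the arrays scaled to equal medians the ATRA values turned to -0.10 at both times, so no direction is given for ATRA. ADH5 at 24 h stood at 8.33, 8.53 and 8.25 in the ATRA samples and at 7.86 and 8.26 in the 9-cis RA samples, against 7.73 and 7.60 in the EtOH samples. At 48 h ADH5 stood at 8.59, 8.55 and 7.89 in the ATRA samples and at 8.23 and 8.59 in the 9-cis RA samples, against 7.09 and 7.93 in the EtOH samples. The ATRA and EtOH samples of 48 h overlapped, while the 9-cis RA samples of 48 h lay above the EtOH samples. ADH5 rose with ATRA at 48 h by 0.83 ± 0.26 (adjusted p = 0.04196). That call was lost in 4 of 12 settings other than leaving out 1 sample, among them testing each detected probe singly (adjusted p = 0.06161). The larger 9-cis RA value at 48 h, given next, passed in 4 of the 12 settings. The other 3 differences were 0.71 ± 0.26 for ATRA at 24 h (adjusted p = 0.1385), 0.40 ± 0.28 for 9-cis RA at 24 h (adjusted p = 0.349) and 0.90 ± 0.28 for 9-cis RA at 48 h (adjusted p = 0.05909). The 48 h ATRA call was lost in 10 of the 14 fits that left out a sample, with 0.41 (adjusted p = 0.4308) without EtOH 48 h replicate 1.

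ALDH1A2 oxidises retinaldehyde to retinoic acid and is the main enzyme of that step in the mouse embryo. It rose with each compound at each time. At 24 h it stood at 6.22, 6.28 and 6.23 in the ATRA samples and at 6.47 and 6.30 in the 9-cis RA samples, against 5.25 and 5.24 in the EtOH samples. At 48 h it stood at 7.42, 7.48 and 7.34 in the ATRA samples and at 7.30 and 7.43 in the 9-cis RA samples, against 6.10 and 5.92 in the EtOH samples. The retinoid samples lay above the EtOH samples of their own time, and those of 48 h lay above those of 24 h with each treatment. At 24 h ALDH1A2 was detected on 0 of 3 EtOH arrays and on 2 of 4 ATRA arrays. No bound is therefore given for ATRA, where the fitted difference was 1.00 ± 0.13 (adjusted p = 0.0002507). With 9-cis RA at 24 h, detected on 3 of 3 arrays, it was at least 1.62-fold higher (1.14 ± 0.14, adjusted p = 0.0001634). At 48 h, when 2 of 3 EtOH arrays detected it, it was higher by 1.40 ± 0.13 with ATRA, a fold of 2.64 (adjusted p = 9.394e-06), and by 1.35 ± 0.14 with 9-cis RA, a fold of 2.55 (adjusted p = 3.022e-05). Between the EtOH groups the difference, 48 h minus 24 h, was 0.77 ± 0.14 and did not pass (unadjusted p = 8.208e-05, adjusted p = 0.14). The other ALDH1A2 probe, described below, gave -0.07 ± 0.21 there.

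ALDH1A1, a second retinaldehyde dehydrogenase that is broadly expressed and also oxidises other aldehydes, was detected on all 20 arrays. At 24 h it stood at 6.84, 6.83 and 7.04 in the ATRA samples and at 7.04 and 7.40 in the 9-cis RA samples, against 6.27 and 6.60 in the EtOH samples. At 48 h it stood at 6.76, 6.70 and 7.14 in the ATRA samples and at 7.25 and 7.22 in the 9-cis RA samples, against 6.78 and 6.73 in the EtOH samples. ATRA and EtOH samples overlapped at 48 h and did not at 24 h, and the 9-cis RA samples lay above EtOH at both times. ALDH1A1 rose by 0.78 ± 0.19 with 9-cis RA at 24 h, a fold of 1.72 (adjusted p = 0.01626). The differences that did not pass were 0.47 ± 0.17 for ATRA at 24 h (adjusted p = 0.1386), 0.11 ± 0.17 for ATRA at 48 h (adjusted p = 0.7019) and 0.48 ± 0.19 for 9-cis RA at 48 h (adjusted p = 0.1256). The 24 h 9-cis RA call was lost without EtOH 24 h replicate 1 (0.62) and without 9-cis RA 24 h replicate 2-3 (0.60). With the 4 samples that stood apart given a term of their own, the value was 0.48 (adjusted p = 0.2046). That term covers both 9-cis RA samples of 24 h and was estimated from the ATRA groups alone, so it cannot decide this call. ALDH1A3, another enzyme of the same step, was detected on 2 arrays by one probe and on 1 by the other, so a level could not be given, and it was not tested.

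**Figure D2:**
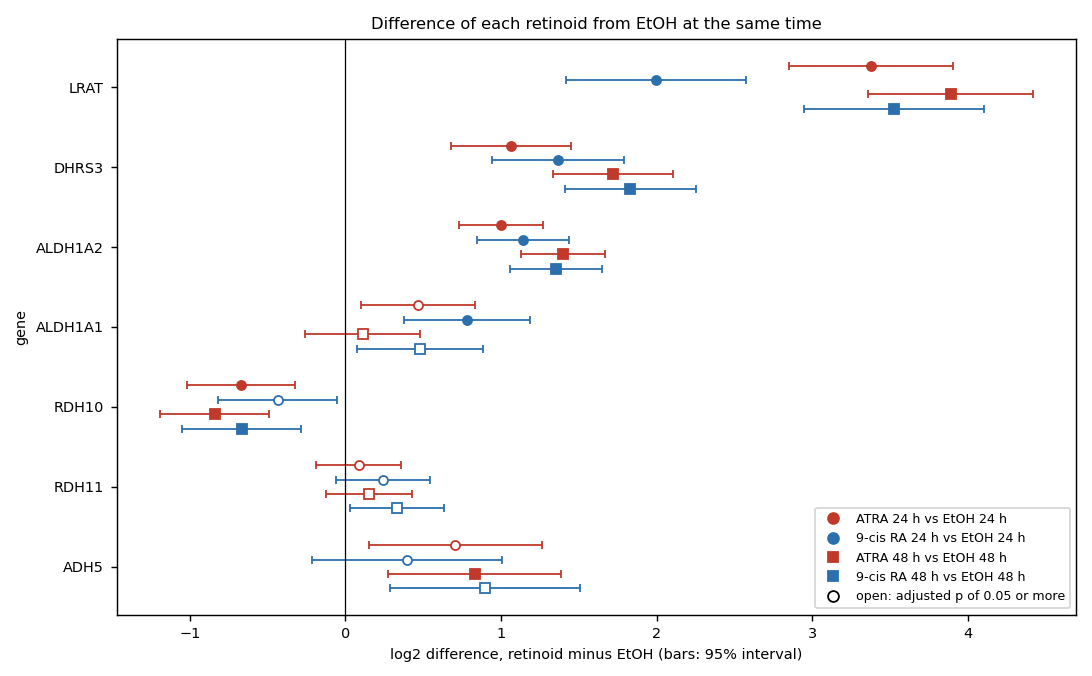
Log2 difference of each retinoid from EtOH at the same time (horizontal axis, with 95% intervals) for the 7 genes (vertical axis). Circles are 24 h, squares 48 h, red ATRA and blue 9-cis RA, and open symbols did not pass. LRAT reaches 3.89 with ATRA at 48 h, and the 4 RDH10 values lie between -0.84 and -0.44.

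ALDH1A2, ALDH1A1 and RDH11 each had 2 detected probes, and each probe was also fitted singly over 18269 detected probes. The second ALDH1A2 probe, annotated to another RefSeq transcript, was detected on 3 arrays against 14 for the first. It passed at 48 h with ATRA (0.77 ± 0.19, adjusted p = 0.02226) and with 9-cis RA (0.94 ± 0.21, adjusted p = 0.01648). At 24 h its values were 0.34 with ATRA (adjusted p = 0.3891) and 0.08 with 9-cis RA (adjusted p = 0.8371). The 2 ALDH1A2 probes disagreed on EtOH over time, the second giving -0.07 ± 0.21 for 48 h minus 24 h, where the first gave 0.77. The second ALDH1A1 probe passed with 9-cis RA at 24 h (0.90 ± 0.24, adjusted p = 0.03683), and its ATRA value at 48 h was -0.22 ± 0.22 (adjusted p = 0.553), opposite in sign to the first probe. The second RDH11 probe gave 0.10, 0.02, 0.35 and 0.04 in the order used above, and 0 of these passed.

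**Figure D3:**
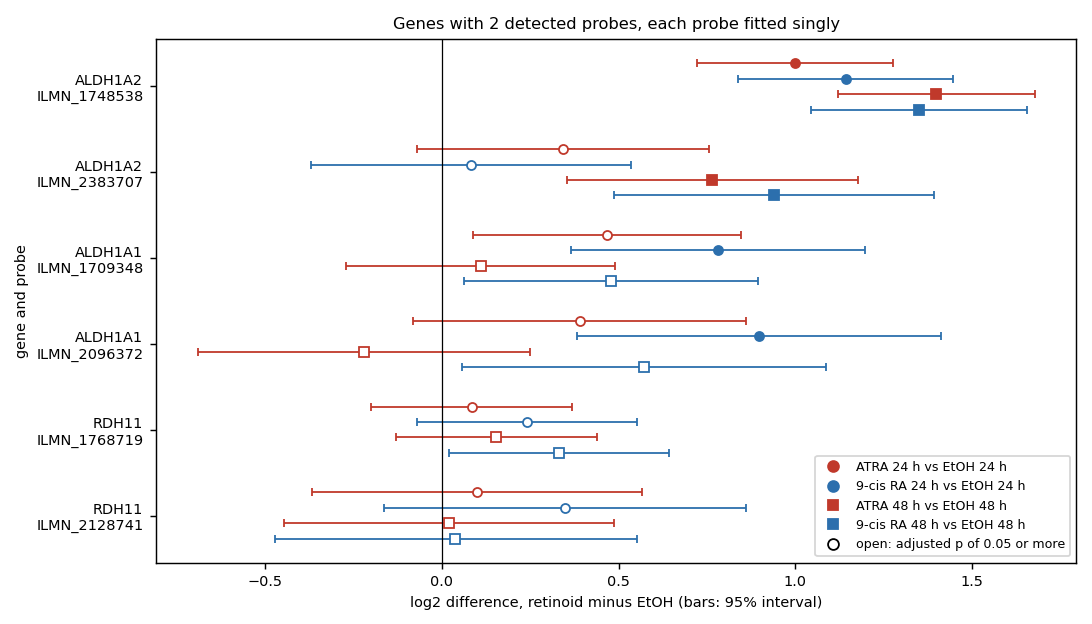
Log2 difference of each retinoid from EtOH at the same time (horizontal axis, 95% intervals) for both probes of ALDH1A2, ALDH1A1 and RDH11 (vertical axis), with closed symbols for an adjusted p under 0.05. The first ALDH1A2 probe passes in all 4 comparisons and the second in the 2 at 48 h.

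ATRA and 9-cis RA share a formula and differ in the arrangement around one side-chain double bond, and both were given at one dose for the same times. Retinoid X receptors bind 9-cis RA, which is also a ligand of the retinoic acid receptors, the targets of ATRA. Of the 7 genes, 0 passed between ATRA and 9-cis RA at 24 h, where 0.0656% of all genes did, and 0 at 48 h, where 0.0375% did. The samples of the isomers did not overlap for 4 of the 7 genes at 24 h, as for 31.5% of all genes, and for 2 at 48 h, as for 23.7%. At an unadjusted p under 0.05, LRAT differed at 24 h and ALDH1A1 at 48 h, and the second ALDH1A1 probe at both times. LRAT at 24 h was 1.38 ± 0.25 higher with ATRA than with 9-cis RA (95% interval 0.86 to 1.91, unadjusted p = 7.582e-05, adjusted p = 0.07356), and all 3 ATRA samples lay above both 9-cis RA samples. At 48 h the difference was 0.37 ± 0.25 (95% interval -0.16 to 0.89, adjusted p = 0.8754), and the samples overlapped. The 24 h difference of LRAT did pass once a term for the array set was added, with the title number as a random block (1.49, adjusted p = 0.002635), in array set 1 alone (1.57, adjusted p = 0.008867) and without ATRA replicate 4 at both times (1.55, adjusted p = 0.007173). With a term for the 4 samples that stood apart, which include both 9-cis RA samples of 24 h, it was 0.99 (adjusted p = 0.1744). It did not pass in 8 of 12 settings other than leaving out 1 sample, nor in 13 of the 14 fits that left out a sample. ALDH1A1 at 48 h was -0.37 ± 0.17 (95% interval -0.74 to -0.00), and all 3 ATRA samples lay below both 9-cis RA samples. The second ALDH1A1 probe gave -0.51 ± 0.22 at 24 h (unadjusted p = 0.03668, adjusted p = 0.5982) and -0.79 ± 0.22 at 48 h (unadjusted p = 0.003129, adjusted p = 0.9604), with the ATRA samples below the 9-cis RA samples at both times. The 95% intervals of the remaining differences of the probes standing for the genes, from DHRS3 at -0.69 to 0.09 to ADH5 at -0.25 to 0.87 at 24 h, contained 0. Such intervals do not show that the isomers act alike.

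**Figure D4:**
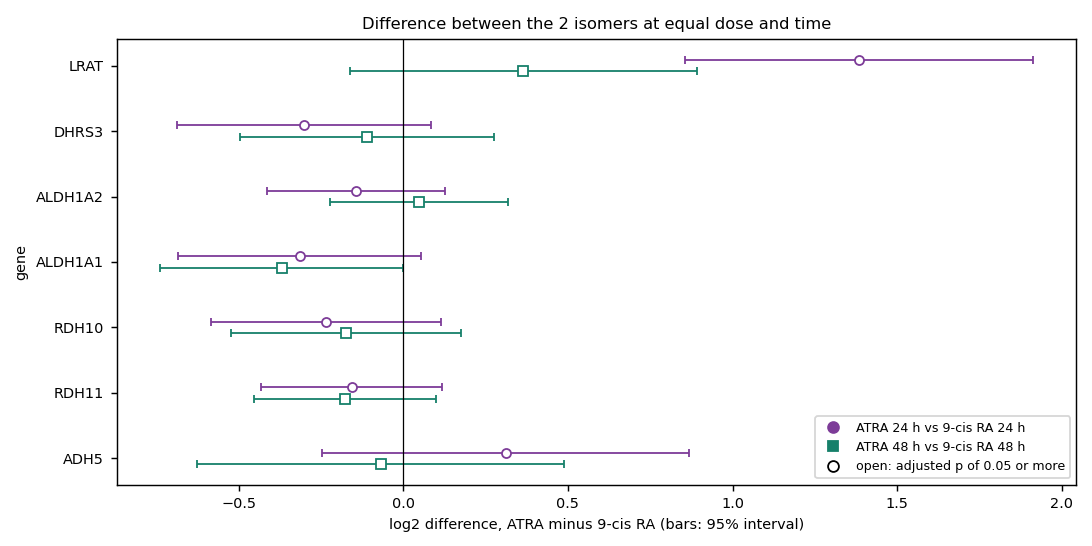
Log2 difference, ATRA minus 9-cis RA (horizontal axis, 95% intervals), for the 7 genes (vertical axis) at 24 h (circles) and 48 h (squares), with open symbols for differences that did not pass. LRAT at 24 h stands at 1.38, and the interval of each other gene at 24 h contains 0.

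Whether an effect differed between 48 h and 24 h was tested as an interaction. For LRAT and DHRS3 at both times, and for ALDH1A2 at 24 h, the effects entering it are fitted differences from EtOH groups detected on 0 arrays, so the size of such a change is not measured. For ATRA 0 of the 7 genes passed, where 0.0375% of all genes did, and for 9-cis RA 0 passed, where 0.00937% did. The fitted 9-cis RA effect on LRAT was 3.53 at 48 h and 1.99 at 24 h, with lower bounds of 8.11-fold at 48 h and 2.64-fold at 24 h, and the fitted change was 1.53 ± 0.38 (95% interval 0.71 to 2.35, unadjusted p = 0.001376, adjusted p = 0.2112). That change did pass once a term for the array set was added (1.58, adjusted p = 0.03278), in array set 1 alone (adjusted p = 0.04307) and without ATRA replicate 4 at both times (adjusted p = 0.02869). With a term for the samples that stood apart, which include both 9-cis RA samples of 24 h, it was 0.94 (adjusted p = 0.4948). It did not pass in 8 of 12 settings other than leaving out 1 sample, nor in any of the 14 fits that left out a sample. The corresponding fitted change of LRAT with ATRA was 0.51 ± 0.35 (95% interval -0.24 to 1.26). For EtOH at 48 h against EtOH at 24 h, 0 of the 7 genes passed, where 0.0281% of all genes did (0.00937% higher, 0.0187% lower). The samples of 48 h and 24 h did not overlap for 2 of them, ALDH1A2 and ALDH1A1, as for 31.7% of all genes. The ALDH1A2 value given above passed without EtOH 48 h replicate 2-3 (0.86, adjusted p = 0.01401).

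The size of the differences depended on the background correction. For ATRA at 24 h the LRAT difference of 3.38 became 1.77 with no background correction and 1.33 in the authors' deposited log2 values, which were made with a transform not given in the sources used here. For the same comparison DHRS3 gave 1.07, 0.38 and 0.25 in that order, ALDH1A2 1.00, 0.35 and 0.24, and RDH10 -0.67, -0.43 and -0.34. LRAT, DHRS3 and ALDH1A2 passed in all 4 retinoid comparisons under each of these scalings, and RDH10 fell under each with ATRA at 48 h. With equal array medians in place of quantile normalization, RDH10 lost its call for ATRA at 24 h (-0.73, adjusted p = 0.05985) and for 9-cis RA at 48 h (-0.64, adjusted p = 0.09989).

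**Figure D5:**
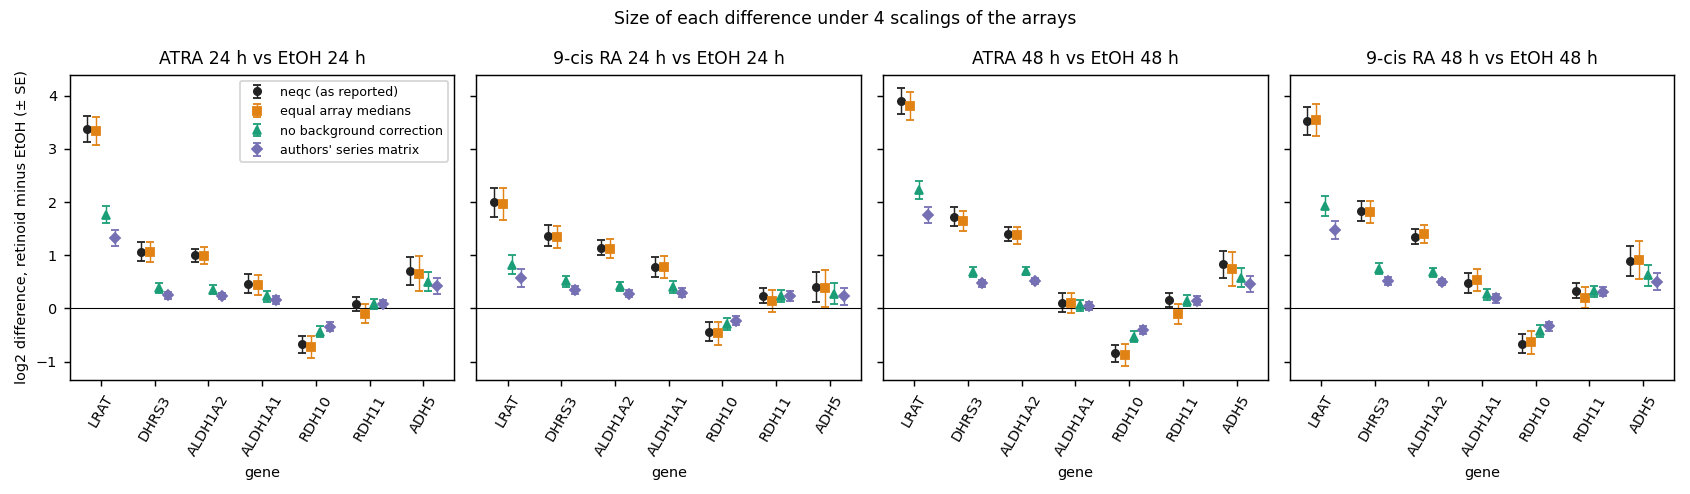
Log2 difference of each retinoid from EtOH (vertical axis, ± SE) for the 7 genes (horizontal axis) under 4 scalings of the arrays, 1 panel per comparison. Without background correction, and in the authors' log2 values, the differences lie nearer to 0 than in the neqc values (LRAT with ATRA at 24 h: 1.77 and 1.33, against 3.38), with the sign kept for each gene that passed.

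Between groups lay 98% of the variance of LRAT over the 14 samples, 95.9% of DHRS3, 99.3% of ALDH1A2, 87.2% of RDH10, 77.3% of ALDH1A1, 72.9% of RDH11 and 66.1% of ADH5. With so few samples per group such shares run high, as for RDH11, which did not pass in any comparison. The share over all tested genes was not computed, so the values are a description alone. In the 6 pairs of arrays that share a title number and were divided between the array sets, LRAT was lower in the second set in 6 of 6 pairs and ALDH1A2 in 6 of 6, while ALDH1A1 was higher there in 6 of 6. The median gap within a pair was 0.24 for LRAT and 0.16 for ALDH1A2. Over the 14 samples, which share the treatments and the array sets, LRAT correlated with DHRS3 (r = 0.885), with ALDH1A2 (r = 0.834) and with RDH10 (r = -0.902), as a description. Among all other tested genes the 3 with the highest r over these samples were EGFL8 (0.964), SPSB1 (0.959) and ZNF503 (0.959) for LRAT, and PPM1D (0.976), SLC26A4 (0.976) and LONP2 (0.972) for DHRS3. For ALDH1A2 they were HTN1 (0.98), NMRK2 (0.963) and MSRB2 (0.958), and for RDH10 TRIP10 (0.962), RGS16 (0.955) and PROSER2 (0.939). For ALDH1A1 they were LRGUK (0.859), ITPRIP (0.857) and PLPP5 (0.855), and for ADH5 NFYA (0.926), CAPN7 (0.921) and AHCYL1 (0.919).

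Other genes of retinoid handling were read from a list of 43, of which 21 had a named probe and 15 were tested. With ATRA 2 rose and 1 fell at 24 h, and 3 rose and 3 fell at 48 h, with a list median of -0.09 at 24 h and -0.18 at 48 h. With 9-cis RA 2 rose and 1 fell at 24 h, and 3 rose and 1 fell at 48 h, with a list median of -0.18 at 24 h and -0.17 at 48 h. Of all tested genes, 5.76% passed with ATRA at 24 h, 17.4% with ATRA at 48 h, 14.5% with 9-cis RA at 24 h and 11% with 9-cis RA at 48 h. CYP26A1 and RLBP1, both among the genes that rose, could not have passed the detection filter without the retinoid arrays. EtOH arrays detected RLBP1 on 0 at 24 h and 1 at 48 h. The counts of this list are thus a description alone. For CYP26A1, which degrades retinoic acid, the probe with the highest mean was detected on all retinoid arrays and on 0 EtOH arrays. That bounds the probe's rise with ATRA at 36.9-fold or more at 24 h and 46.7-fold or more at 48 h. With 9-cis RA the bounds were 45.0-fold at 24 h and 65.1-fold at 48 h. They do not hold for the other detected CYP26A1 probes, whose fitted differences were smaller. Those were 3.26 and 3.40 with ATRA at 24 h, and 3.10 and 3.93 at 48 h. With 9-cis RA they were 3.17 and 3.67 at 24 h, and 3.99 and 4.51 at 48 h, against 6.55 and 7.10 for the first probe. CYP26B1, a second enzyme of that kind, rose with ATRA by 0.90 ± 0.14 at 24 h and by 2.97 ± 0.14 at 48 h, and with 9-cis RA by 0.65 ± 0.15 at 48 h (adjusted p = 0.01536), against 0.35 ± 0.15 at 24 h (adjusted p = 0.1275). It was the 1 gene of the list that passed between the isomers, 2.32 higher with ATRA than with 9-cis RA at 48 h (adjusted p = 3.66e-06). FABP5, a fatty acid binding protein that also carries retinoic acid, fell in all 4 comparisons, by 0.87 with ATRA at 24 h, 1.53 with ATRA at 48 h, 1.04 with 9-cis RA at 24 h and 1.47 with 9-cis RA at 48 h. Its second probe, tested among all detected probes, passed at 48 h with ATRA (-1.45, adjusted p = 0.01482) and 9-cis RA (-1.44, adjusted p = 0.03124). At 24 h that probe did not pass with ATRA (-0.75, adjusted p = 0.2714) or 9-cis RA (-0.61, adjusted p = 0.3047). RLBP1, a carrier of 11-cis retinoids in the retina, rose by 0.78 with ATRA at 48 h and by 1.18 with 9-cis RA at 48 h. With 9-cis RA at 24 h its fitted difference was 0.99 (adjusted p = 0.003267). RLBP1 was detected on 0 EtOH arrays and on 2 of the 9-cis RA arrays of that time, not on all of them, so no bound is given. RDH13 (-0.68) and CYP1B1 (-0.51) fell with ATRA at 48 h, CYP1B1 being detected on 0 ATRA arrays there. DHRS4, which reduces retinaldehyde as DHRS3 does, gave -0.22 and -0.42 with ATRA at 24 and 48 h and did not pass (adjusted p = 0.4897 and 0.09872).

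Among the other alcohol dehydrogenases 2 of 7 were tested, and ADHFE1, a mitochondrial enzyme that oxidises hydroxybutyrate, fell with ATRA at 48 h by 0.96. Of 16 other aldehyde dehydrogenases 12 were tested. With ATRA 1 rose and 0 fell at 24 h, and 2 rose and 0 fell at 48 h, and with 9-cis RA 2 rose and 2 fell at 24 h, and 1 rose and 0 fell at 48 h. The shares of all tested genes that passed in these comparisons were 5.76%, 17.4%, 14.5% and 11%, and counts of 1 to 4 of 12 genes are not read as more than that. ALDH9A1, which acts in carnitine synthesis, rose by 0.49 with ATRA at 24 h, by 0.42 with ATRA at 48 h and by 0.60 with 9-cis RA at 24 h. ALDH18A1, an enzyme of proline synthesis, rose by 0.58 with ATRA at 48 h and by 0.59 with 9-cis RA at 24 h. Among all detected probes, ALDH9A1 passed with 9-cis RA at 24 h (adjusted p = 0.02538) and not with ATRA (0.06883 at 24 h and 0.05629 at 48 h). There ALDH18A1 passed with ATRA at 48 h (adjusted p = 0.04147) and not with 9-cis RA at 24 h (0.06585). ALDH6A1, of valine breakdown, fell by 0.83 with 9-cis RA at 24 h and rose by 0.61 with it at 48 h. Its second probe, tested among all detected probes, gave -0.26 at 24 h (adjusted p = 0.4286) and 0.78 at 48 h (adjusted p = 0.03483). The probe standing for ALDH7A1, an enzyme of lysine breakdown, was lower by 0.56 with 9-cis RA at 24 h (adjusted p = 0.04941, and 0.07359 among all detected probes). The second ALDH7A1 probe gave -0.02 there (adjusted p = 0.9566) and 0.55 with ATRA at 48 h (adjusted p = 0.03493), so the probes of ALDH7A1 disagreed. Of 3 ALDH3A2 probes, 1 passed singly, at 1.12 with 9-cis RA at 24 h (adjusted p = 0.005382), and the probe standing for the gene gave 0.50 (adjusted p = 0.1171 singly). ALDH1B1, a mitochondrial relative of the ALDH1A enzymes, gave -0.18 with ATRA at 24 h and -0.28 at 48 h and did not pass (adjusted p = 0.6543 and 0.3581).

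Summed signals of marker genes were higher in all retinoid samples than in EtOH samples at both times for the melanocyte, fibroblast and leukocyte lists. The same held at 48 h for the retinal pigment epithelium list. Most of the fibroblast sum came from LUM (9.03 to 10.96 on the log2 scale), with DCN at 4.43 to 7.01. Most of the leukocyte sum came from CD68 (10.15 to 11.76), with LYZ at 4.74 to 5.86 and CD14 at 4.77 to 5.43. The fibroblast and leukocyte sums are thus each chiefly a reading of 1 gene. The 7 melanocyte-lineage markers summed to 60670 to 61330 in ATRA samples and 58960 to 59910 in 9-cis RA samples, against 53610 to 53740 in EtOH samples, at 24 h. At 48 h they summed to 64550 to 69210 with ATRA and 62270 to 66780 with 9-cis RA, against 50240 to 59000 with EtOH. The 3 fibroblast markers with a probe, of which COL1A1 was undetected, summed to 925.8 to 1118 with ATRA and 887.8 to 974.3 with 9-cis RA, against 611.6 to 687.1 with EtOH, at 24 h. At 48 h the fibroblast sum was 1681 to 1948 with ATRA and 1910 to 2140 with 9-cis RA, against 579.3 to 925 with EtOH. The 3 leukocyte markers with a probe, of which LYZ was detected on 2 arrays and CD14 on 1, summed to 2308 to 2577 with ATRA and 2372 to 2558 with 9-cis RA, against 1367 to 1420 with EtOH, at 24 h. At 48 h the leukocyte sum was 2432 to 2848 with ATRA and 3338 to 3523 with 9-cis RA, against 1209 to 1516 with EtOH. For epithelium, CDH1 alone had a probe and its signal was 133.4 to 145.6 with ATRA and 161.2 to 168.4 with 9-cis RA, against 126.9 to 156 with EtOH, at 24 h, and 330.7 to 468.3, 332.8 to 344.7 and 311.6 to 373.9 in the same order at 48 h. The 3 retinal pigment epithelium markers with a probe summed to 579.5 to 708.1 with ATRA and 613.8 to 635.2 with 9-cis RA, against 628.5 to 682.4 with EtOH, at 24 h, and to 758.7 to 792.6, 811.6 to 834.4 and 586.7 to 683.5 in the same order at 48 h. KDR, the 1 endothelial marker with a probe, was detected on 1 array. Their part in the values of the retinol genes was not tested.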

How the data were processed

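The deposited intensities are mean bead signals of biotin-labelled RNA, per the labels, and show no background subtraction or scaling between arrays. Beside them the authors deposited a detection p-value per probe and array. The authors' deposited log2 values come from lumi, per the submitters' processing notes, with transform and version not given in the sources used here. From the intensities of 20 arrays, limma's neqc (offset 16) gave background-corrected, quantile-normalized log2 values. The filter on detection (p-value under 0.01 on at least 3 arrays) left 18269 probes. Each of 10673 genes was read from its probe with the highest mean. Arrays sharing a title number were averaged, and the 14 samples were fitted in limma 3.58.1 (R 4.3.3) with 6 group means. Benjamini-Hochberg adjusted p-values of limma's moderated test cover all tested genes. Probe-to-gene names come from the platform's annotation. The genes, lists, tests and alternatives were chosen with earlier results of these data known. The steps were tested on simulated data. The number of arrays limits the precision. A fold against a group detected on none of its arrays is bounded by the lowest detected signal of each array. Such a bound holds on the neqc scale alone, and is given where each array of the other group detected the gene.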

Additional observations from a re-analysis of the deposited data

How the results depend on the processing

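The settings tried were no background correction, equal array medians, the authors' log2 values, no filter on detection, each detected probe tested singly, the array set as a term with the title number as a random block (correlation of repeat arrays 0.648), each array set alone, 20 arrays as independent, the groups of a comparison alone, leaving out each of 14 samples, leaving out ATRA replicate 4 at both times and, chosen after seeing the data, a term for the 4 samples apart on the second principal component. No paired analysis was possible because the labels give no number that ties a treated sample to an EtOH sample. The number of the 7 genes that passed fell in array set 2 alone, where each EtOH and each 9-cis RA group has 1 array that is assumed to vary like the ATRA groups' 2, to 1 from 4 for ATRA at 24 h, to 2 from 5 for ATRA at 48 h, to 0 from 4 for 9-cis RA at 24 h and to 1 from 4 for 9-cis RA at 48 h. Leaving out 1 sample gave 2 to 4, 4 to 5, 3 to 4 and 3 to 5 passing genes in the same order. Between the isomers at 24 h the count became 1 with the array set as a term, in array set 1 alone, with 20 arrays as independent and without ATRA replicate 4 at both times, and was 0 to 1 with 1 sample left out. It stayed 0 between the isomers at 48 h under every setting. The count for the change of the 9-cis RA effect became 1 under those same 4 settings. For EtOH at 48 h against 24 h it became 1 with 20 arrays as independent and was 0 to 1 with 1 sample left out. Over all genes, the 615 that passed for ATRA at 24 h became 211 to 1083 with 1 sample left out and 87 to 1593 under the other settings. The 1856 for ATRA at 48 h became 816 to 3273 and 103 to 2504, the 1549 for 9-cis RA at 24 h 302 to 2257 and 49 to 3934, and the 1177 for 9-cis RA at 48 h 441 to 2575 and 73 to 1974. Of 1638 combinations of gene, comparison and setting, 1573 kept their side of the threshold, 41 lost a call and 24 gained a call. Many of those that kept their side were called in neither fit, so the count does not measure how firm the calls are. The sign changed in 42 combinations, with 0 of them called in either fit. The cause of these changes was not tested. Signal over background limits LRAT, DHRS3, ALDH1A2 and ALDH1A3, which were near or under detection in EtOH.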
